A study of Mus musculus with 12 samples.

Results

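Deep intragenic peaks are stretches of open chromatin that lie far inside protein-coding genes, away from the start and the end of every such gene. They were chosen by position alone: a peak on chromosomes 1 to 19, under 3000 bp wide, whose centre lay inside a protein-coding gene and more than 10 kb from the ends of every protein-coding gene in RefSeq GRCm38.p6. By this rule 18975 of the 75281 consensus peaks (25.2%) were deep intragenic, in 4944 genes. The peaks came from ATAC-seq of bone marrow of NZO/HILtJ (New Zealand Obese) mice, an inbred strain that becomes obese. The 4 groups were females of 3 months, males of 3 months, females of 18 months and males of 18 months, with 3 mice and 3 libraries in each; no group carried a genetic change or a treatment in the labels. Libraries are named by age, sex (F or M) and mouse, as in 3mo_M_253. In ATAC-seq a transposase cuts accessible DNA, and the read count over a peak measures its accessibility, given here as TMM-scaled CPM (counts scaled to library size).

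Regions inside long introns hold many of the enhancers of a mammalian genome. An enhancer binds transcription factors, becomes accessible in the cell types that use it, and can act on the promoter of the gene that contains it or of a neighbour. In blood-forming marrow, enhancers are often used in 1 lineage, so the accessibility of whole marrow at such a site sums over all cells present. The gene table gave no exons, so exon and intron are not named, and a peak is named by the gene that holds it, which need not be the gene it acts on.

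Total counts in peaks ranged from 7668099 to 12756647 over the 12 libraries. The 18-month females formed sequencing run 14 and the 18-month males run 15, and the 3-month libraries came from runs 28 to 31. No run held libraries of both ages, so age and run cannot be told apart and no within-run value of an age difference exists. The protocol text speaks of sorted CD3e+ CD8+ T cells, whereas the sample labels name bone marrow. At gene-end peaks all 6 erythroid, all 6 neutrophil and all 5 B cell marker genes had a peak, while Cd3e, Cd8a and Bcl11b, 3 of 6 T cell markers, had none. The summed CPM of the erythroid marker peaks ran from 141 to 189 at 18 months and from 287 to 368 at 3 months, with 9 of 11 peaks called lower. The neutrophil marker peaks summed to 388 to 477 CPM at 18 months and 272 to 456 CPM at 3 months, with 13 of 21 called higher, whereas 0 of 19 B cell marker peaks were called in either direction.

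Some deep intragenic peaks covered an internal start, the start of a shorter transcript of the gene they lie in. Of the tested peaks, 414 overlapped a RefSeq start window of the same gene, that is, 250 bases before to 50 after an annotated start (RefSeq, GRCm38.p6). The windows below are those of the 5 largest falls and the 3 largest rises with age among such peaks called with age and with no overlap between ages, leaving out 1 chromosome whose sequences are not printed; they were chosen after their values were seen, to show what an age-changed internal start looks like. Capitals mark 4 motifs searched on both strands. The GATA motif, bound by GATA factors, was searched as AGATAA and, in a second spelling, as TGATAA. The CACCC box, bound by KLF factors, was searched as CACACCC. For the PU.1-type ETS motif the letters searched were GAGGAAG. The AP-1 site was searched as TGAGTCA and, in its other spelling, as TGACTCA. In these windows no capitals of different motifs overlap, and the Clcn3, Rph3al and Gcnt2 windows hold none of the 4. The first 5 windows overlapped peaks that were lower at 18 months and the last 3 overlapped peaks that were higher. The Rph3al, Creb5 and Gcnt2 windows reach past the edge of their peak, so part of their sequence lies outside it.
Clcn3 internal start: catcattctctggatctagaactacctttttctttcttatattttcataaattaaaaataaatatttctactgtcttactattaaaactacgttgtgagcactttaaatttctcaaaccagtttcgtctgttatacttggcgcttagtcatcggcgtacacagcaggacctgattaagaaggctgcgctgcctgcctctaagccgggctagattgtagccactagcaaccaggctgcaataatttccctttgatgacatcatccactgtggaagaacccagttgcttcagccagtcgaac
Atp2b4 internal start: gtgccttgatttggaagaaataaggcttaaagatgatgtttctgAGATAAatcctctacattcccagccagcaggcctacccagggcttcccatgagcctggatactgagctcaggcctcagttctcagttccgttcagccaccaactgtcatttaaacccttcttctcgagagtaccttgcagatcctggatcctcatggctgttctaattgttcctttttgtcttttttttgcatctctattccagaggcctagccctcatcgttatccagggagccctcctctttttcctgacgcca
St7 internal start: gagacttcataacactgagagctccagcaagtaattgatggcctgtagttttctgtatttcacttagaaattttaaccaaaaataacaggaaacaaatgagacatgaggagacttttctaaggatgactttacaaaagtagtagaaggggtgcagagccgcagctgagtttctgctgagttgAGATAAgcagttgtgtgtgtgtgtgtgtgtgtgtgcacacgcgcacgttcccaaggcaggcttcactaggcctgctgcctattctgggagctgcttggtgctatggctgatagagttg
Rph3al internal start: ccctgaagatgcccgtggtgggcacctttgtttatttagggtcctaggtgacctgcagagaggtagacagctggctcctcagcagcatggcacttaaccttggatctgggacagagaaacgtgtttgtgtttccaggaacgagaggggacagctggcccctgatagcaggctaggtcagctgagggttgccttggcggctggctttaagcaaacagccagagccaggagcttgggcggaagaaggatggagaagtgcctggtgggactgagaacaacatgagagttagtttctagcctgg
Sox6 internal start: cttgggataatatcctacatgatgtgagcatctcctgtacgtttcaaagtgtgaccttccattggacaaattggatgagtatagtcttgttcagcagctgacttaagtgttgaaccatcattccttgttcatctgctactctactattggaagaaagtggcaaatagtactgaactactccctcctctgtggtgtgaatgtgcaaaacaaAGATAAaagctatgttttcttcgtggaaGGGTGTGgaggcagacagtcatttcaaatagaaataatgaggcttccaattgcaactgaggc
Creb5 internal start: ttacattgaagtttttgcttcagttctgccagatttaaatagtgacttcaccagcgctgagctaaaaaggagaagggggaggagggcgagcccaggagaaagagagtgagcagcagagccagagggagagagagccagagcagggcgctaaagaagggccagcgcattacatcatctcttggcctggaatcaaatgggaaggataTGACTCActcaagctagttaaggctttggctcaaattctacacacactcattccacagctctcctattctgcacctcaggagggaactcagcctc
Gcnt2 internal start: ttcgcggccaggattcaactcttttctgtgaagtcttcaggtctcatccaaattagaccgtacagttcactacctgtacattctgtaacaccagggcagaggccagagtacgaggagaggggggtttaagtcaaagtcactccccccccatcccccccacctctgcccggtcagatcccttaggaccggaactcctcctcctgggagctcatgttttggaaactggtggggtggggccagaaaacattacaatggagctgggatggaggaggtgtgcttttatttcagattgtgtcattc
Lims1 internal start: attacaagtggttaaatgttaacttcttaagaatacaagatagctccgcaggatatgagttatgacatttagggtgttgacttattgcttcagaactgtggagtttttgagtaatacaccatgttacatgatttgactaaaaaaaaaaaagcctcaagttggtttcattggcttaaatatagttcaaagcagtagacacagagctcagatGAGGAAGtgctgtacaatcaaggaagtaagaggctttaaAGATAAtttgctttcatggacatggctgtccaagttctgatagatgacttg
The Clcn3 window lies at chr8:60954750-60955049 (minus strand), Atp2b4 at chr1:133753698-133753997 (minus), St7 at chr6:17743342-17743641 (plus), Rph3al at chr11:75925842-75926141 (minus) and Sox6 at chr7:115846091-115846390 (minus). The Creb5 window lies at chr6:53573124-53573423 (plus), Gcnt2 at chr13:40886508-40886807 (plus) and Lims1 at chr10:58351713-58352012 (plus). Atp2b4 encodes a plasma membrane calcium pump that is abundant in red cells, and its peak ran from 10.6 to 12.5 CPM (median 11.7) at 18 months and from 21.2 to 27.4 CPM (median 24.0) at 3 months. The Sox6 peak ran from 5.65 to 8.37 CPM (median 6.74) at 18 months against 10.98 to 14.9 CPM (median 13.0) at 3 months. Neither peak overlapped between ages, and the log2 fold changes were -1.05 (SE 0.11, edgeR adjusted p = 3.21e-10) and -0.89 (SE 0.13, adjusted p = 1.02e-06). Lims1, which encodes an adaptor of integrin adhesions, had 13.9 to 21.5 CPM (median 16.6) at 18 months and 10.2 to 13.0 CPM (median 12.0) at 3 months, a log2 fold change of 0.52 (SE 0.12, edgeR adjusted p = 0.00118).

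Among the 414 peaks at internal starts, 28 were higher and 92 lower at 18 months, 22.2% lower against 9.23% of the 18388 members that covered no start window. The internal starts were also wider, with a median width of 1137.5 bp against 604 bp. Within the quartile of highest accessibility, 14 were higher and 73 lower of 226, against 302 and 574 of 2251 without a start. The split moved with the scaling: 51 were higher and 69 lower with scaling to total counts, 48 and 67 with offsets that remove a trend with abundance, and 42 and 60 with offsets that remove a trend with width. A GATA motif was present in 19.6% of the 92 windows that fell, 14.3% of the 28 that rose and 11.9% of the 294 not called, beside 18.6% of all 32851 RefSeq start windows of that length. The PU.1-type motif was in 28.6% of the 28 windows that rose (8 windows), 12.0% of those that fell and 13.6% of all. The CACCC box was in 10.7%, 9.78% and 7.95% and the AP-1 site in 7.14%, 6.52% and 5.20% of the same 3 sets.

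Deep intragenic accessibility changed with age in both directions. Of 18959 tested members, 1858 (9.80%) were higher and 1828 (9.64%) lower at 18 months, 19.4% in all (edgeR quasi-likelihood test with sex as covariate, Benjamini-Hochberg adjusted p under 0.05 over all 75164 tested peaks). Over all tested peaks 21% were called, 9.43% higher and 11.6% lower, so members were called about as often as peaks at large. The median log2 fold change was 0.05 over members and 0.02 over all tested peaks. Called members had a median absolute log2 fold change of 0.55. Fold changes past a doubling were few: 27 members rose and 46 fell by more than 1 on the log2 scale. All 6 old libraries lay above all 6 young ones for 409 members (2.16%, against 2.2% of all tested peaks) and below them for 853 (4.50%, against 5.04%); over all tested peaks the ages were apart in 7.24%. The split depended on the scaling: 2945 members were higher and 1376 lower with total counts, 1732 and 1874 with DESeq2 size factors, 1657 and 2025 with abundance offsets, 1464 and 1822 with width offsets, and 1428 and 2076 with TMM factors taken from members alone. All tested peaks moved too, with 11196 higher and 6629 lower with total counts and 6644 and 8922 with DESeq2 size factors. Over all tested peaks abundance offsets gave 7247 and 7753, and width offsets 6423 and 7101. The labels name bone marrow, and marker genes of several lineages had peaks. Fewer cells of a type and less accessible chromatin per cell therefore cannot be told apart.

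Members held a larger part of the counts in consensus peaks in the old mice. Their share ran from 14.9% to 15.9% at 18 months, with a mean of 15.5% ± 0.40 (SD, n = 6), and from 14.4% to 15.5% at 3 months, with a mean of 14.8% ± 0.37 (SD, n = 6). The difference was 0.70 percentage points (two-sided p = 0.0173 by exact permutation of the age labels, and 0.0173 after Benjamini-Hochberg adjustment over the 3 measures of this paragraph). Gene-end peaks, those under 3 kb wide and centred within 3 kb of a gene end, shifted the other way with TMM scaling: 1075 were higher and 3097 lower of 20720, with a median log2 fold change of -0.05. Intergenic peaks 3 to 50 kb from the nearest gene end shifted upwards, with 2069 higher and 1120 lower of 15228 and a median of 0.12. With total counts 1895 gene-end peaks were higher and 2289 lower (median 0.02), and 3142 intergenic peaks were higher and 843 lower (median 0.19). With DESeq2 size factors and both kinds of offset the gene-end median stayed negative and the intergenic median positive. Members lay between these classes in median log2 fold change under each scaling. The mean log2 CPM of members minus that of gene-end peaks averaged -0.82 ± 0.04 (SD, n = 6) in the old libraries and -0.91 ± 0.03 (SD, n = 6) in the young, a difference of 0.09 (exact two-sided permutation p = 0.00649, adjusted 0.00974). Members minus intergenic peaks gave -0.12 ± 0.01 (SD, n = 6) and -0.06 ± 0.01 (SD, n = 6), a difference of -0.06 with no overlap between ages (exact two-sided permutation p = 0.00216, the lowest possible with 6 against 6, adjusted 0.00649). With offsets that remove a trend with abundance or with width, the difference against gene-end peaks was 0.02 in both cases and no longer passed (exact permutation p = 0.145 and 0.0801), whereas that against intergenic peaks stayed at -0.06.

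**Figure D1:**
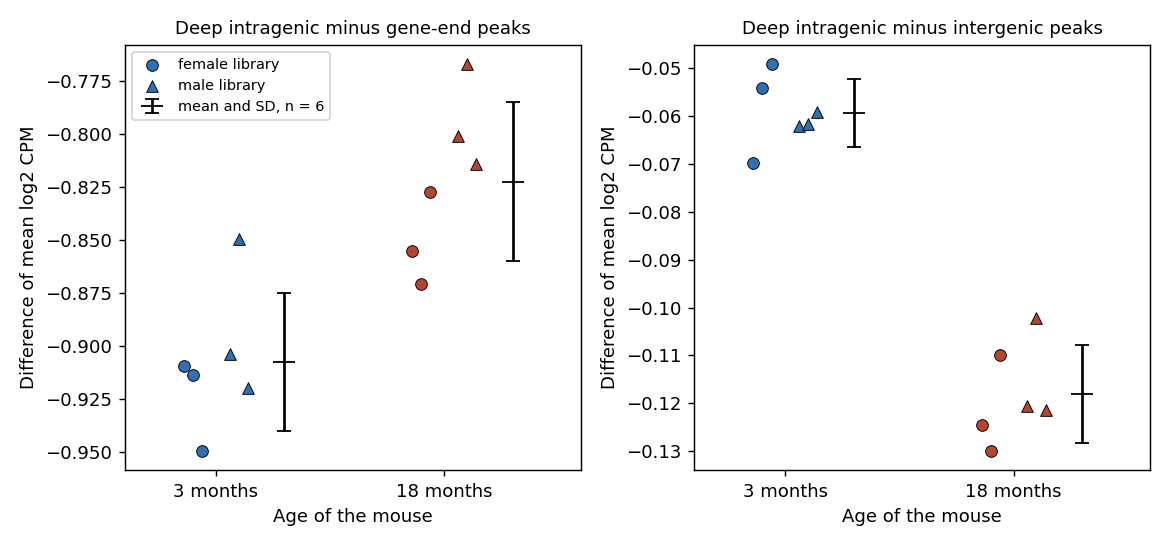
Mean log2 CPM of deep intragenic peaks minus that of gene-end peaks (left) and of intergenic peaks 3 to 50 kb from genes (right), 1 point per library, by age and sex. Against gene-end peaks the mean is -0.91 at 3 months and -0.82 at 18 months; against intergenic peaks it is -0.06 and -0.12, and the ages do not overlap.

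With TMM scaling the direction of change went with how accessible a member was. In the quartile of lowest mean log2 CPM 407 members were higher and 169 lower, in the second 516 and 363, in the third 616 and 625, and in the highest 319 and 671. Called members that fell were wider than those that rose, with median widths of 1001.5 and 652.5 bp, against 613 bp for all tested members. Gene-end and intergenic peaks showed the same order over quartiles with TMM scaling. Under the abundance offsets, which remove such a trend by construction, the quartiles gave 237 higher and 268 lower, 351 and 470, 501 and 698, and 568 and 589. Under the width offsets they gave 187 higher and 287 lower, 297 and 457, 472 and 583, and 508 and 495, so the share of called members that rose was lowest in the first and second quartiles and highest in the fourth. With total counts the highest quartile had 619 higher and 590 lower, and in each lower quartile more rose than fell. The share of called members that rose thus fell from the first to the fourth quartile with TMM, total counts and DESeq2 size factors, and with neither kind of offset.

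**Figure D2:**
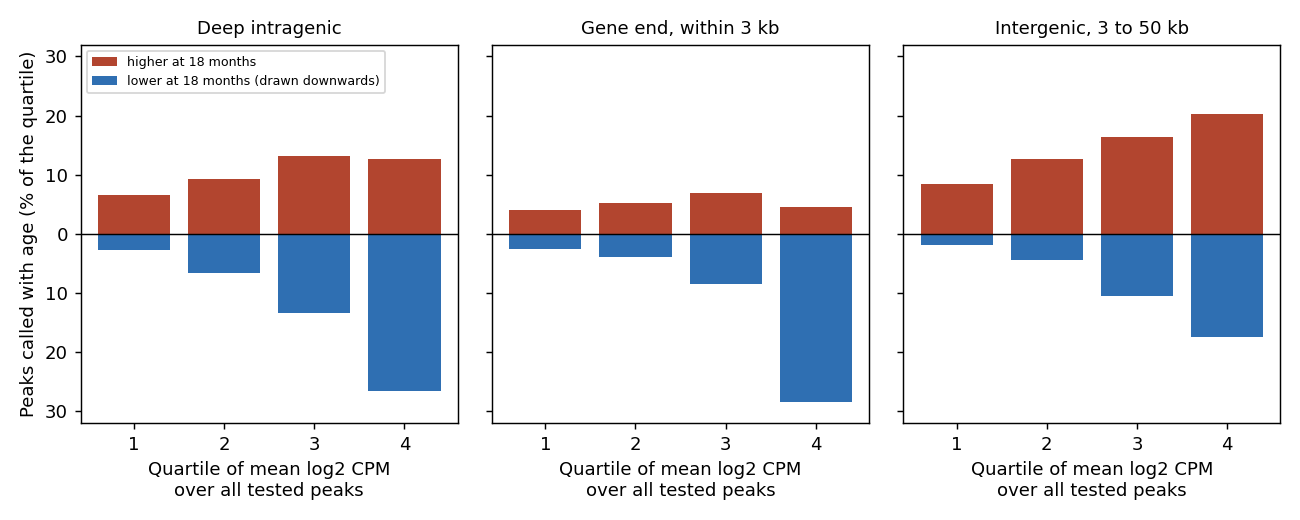
Percent of tested peaks called higher (upwards) or lower (downwards) at 18 months with TMM scaling, by quartile of mean log2 CPM over all tested peaks, for deep intragenic, gene-end and intergenic peaks. In the highest quartile 12.6% of deep intragenic peaks were higher and 26.5% lower, against 4.51% and 28.4% of gene-end peaks and 20.3% and 17.5% of intergenic peaks.

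Members farther from the gene ends were more often higher with TMM scaling, the only scaling used for the splits of this paragraph. From 10 to 20 kb 535 were higher and 648 lower of 6585, from 20 to 50 kb 686 and 706 of 7297, from 50 to 100 kb 379 and 296 of 3246, and beyond 100 kb 258 and 178 of 1831. The higher ones thus made up 45.2%, 49.3%, 56.1% and 59.2% of the called members of these bins, while the median log2 CPM of the bins went from 2.66 to 2.34. Just inside the 10 kb limit, at 10 to 11 kb, 56 were higher and 91 lower of 901; just outside it, at 9 to 10 kb, 93 and 103 of 1052. Where RefSeq start windows gave the strand, the part of the gene nearest the start, when cut into 3 equal parts, had 426 higher (9.53%) and 502 lower (11.2%) of 4470 members and the part nearest the end 405 (10.3%) and 355 (8.99%) of 3947. Of 1778 members that were the single one of their gene 166 were higher (9.34%) and 93 lower (5.23%), and of 6682 in genes with 10 or more 592 (8.86%) and 824 (12.3%), beside 9.80% and 9.64% of all members. By chromosome the share of members called higher was lowest on chromosome 11, at 5.89%, and highest on chromosome 14, at 14.5%; the share called lower was highest on chromosome 5, at 13.7%.

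Peaks of 1 gene tended to change the same way. Tested members lay in 4939 genes, of which 1778 held 1, 3161 held at least 2, 435 held at least 10 and Gse1 held the most, 72. At least 2 members were called in 797 genes, and in 617 of these (77.4%) all called peaks had the same direction. Of neighbouring members of the same gene that were both called, 469 of 479 pairs (97.9%) less than 5 kb apart had the same direction, 261 of 283 (92.2%) at 5 to 20 kb, and 99 of 116 (85.3%) at 20 to 100 kb. Neighbours in different genes at 20 to 100 kb had the same direction in 34 of 45 pairs (75.6%). All neighbours in that range, called or not, had a median gap of 32.7 kb within a gene and 59.9 kb between genes. No neighbours in different genes lay closer than 20 kb. Whether sharing a gene mattered apart from distance was not tested. Summed over the members of a gene, counts were higher at 18 months in 906 genes (18.3%) and lower in 636 (12.9%) of 4939 (edgeR, adjusted p under 0.05); with total-count scaling 1392 were higher and 480 lower. The sums of 241 genes (4.88%) were higher and of 341 (6.9%) lower with no overlap between ages. In 184 called genes no single member was called. At least 3 members rose and none fell in 141 genes, and at least 3 fell and none rose in 154. Further requiring that the sum was called and did not overlap between ages left 63 genes that rose and 124 that fell, and those named next came from these.

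Among the 10 genes named for most falling members were Ank1, Sox6, Epb41 and Cbfa2t3, which act in red cells or their precursors. Ank1, which encodes the ankyrin that ties the spectrin skeleton to the red cell membrane, had 15 of 22 deep intragenic peaks lower and 0 higher. Its summed accessibility ran from 183 to 224 CPM (median 196) at 18 months and from 269 to 345 CPM (median 308) at 3 months. Every old library lay below every young one, and the log2 fold change was -0.64 (SE 0.06, edgeR adjusted p = 3.24e-09), with -0.70 in females and -0.57 in males. Its largest change, at chr8:23029907-23031698, took the peak from 24.2 to 33.2 CPM (median 29.4) at 3 months to 11.7 to 14.8 CPM (median 13.7) at 18 months. Sox6, a transcription factor of red cell maturation that silences embryonic globin, had 15 of 32 peaks lower, and its sum ran from 186 to 211 CPM (median 194) against 256 to 313 CPM (median 291), a log2 fold change of -0.56 (SE 0.05, adjusted p = 3.24e-09). Of its falling peaks, 8 lay next to each other between 193 and 209 kb from the annotated start, and the internal start printed above is among them. Epb41, which encodes protein 4.1 of the same membrane skeleton, had 12 of 21 peaks lower, with a sum of 149 to 160 CPM (median 153) against 187 to 234 CPM (median 214). Cbfa2t3 encodes a corepressor that works with GATA1 and TAL1 in red cell precursors. It had 12 of 22 peaks lower, with 224 to 258 CPM (median 246) against 307 to 362 CPM (median 328).

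Nprl3 had the largest fold change among the named genes that fell. It encodes a subunit of the GATOR1 complex, and its introns hold the distal enhancers of the neighbouring alpha-globin genes. All 3 of its members fell, and the sum ran from 26.4 to 33.7 CPM (median 28.2) at 18 months against 44.8 to 58.6 CPM (median 54.0) at 3 months, a log2 fold change of -0.89 (SE 0.08, edgeR adjusted p = 2.66e-09). Most of the signal came from the peak at chr11:32255588-32257580, 11.1 kb from the annotated start, with 15.2 to 21.3 CPM (median 17.4) against 28.5 to 41.6 CPM (median 36.5). The other two were at 5.65 and 5.60 CPM on average at 18 months and at 8.80 and 8.36 CPM at 3 months. Clcn3, an endosomal chloride and proton exchanger, fell as much, by 0.89 on the log2 scale (SE 0.07, edgeR adjusted p = 1.35e-10), with 4 of 6 peaks lower. The sum in Clcn3 was 34.9 to 39.4 CPM (median 37.6) at 18 months and 64.2 to 78.0 CPM (median 68.3) at 3 months.

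Gse1, a coiled-coil protein found with LSD1 and histone deacetylases, had the most falling members, 31 of 72, spread along the gene. Its sum ran from 711 to 814 CPM (median 796) against 925 to 1051.3 CPM (median 989), and the log2 fold change of -0.35 (SE 0.04) was smaller than in the other genes so far. Tfdp2, a dimer partner of E2F cell cycle factors, had 10 of 13 peaks lower and a sum of 54.5 to 71.1 CPM (median 61.0) against 86.6 to 106 CPM (median 102). Cyth3, an exchange factor for ARF GTPases, had 10 of 12 lower, and its sum ran from 110 to 128 CPM (median 116) against 151 to 191 CPM (median 173). Hectd4, a HECT-domain ubiquitin ligase, had 11 of 27 lower, Camta1, a calmodulin-binding transcription factor, 9 of 24, and the spindle checkpoint gene Mad1l1 9 of 34. Their log2 fold changes were -0.39, -0.44 and -0.31. The other genes named for size were Tom1l1, an endosomal sorting adaptor (-0.82), the zinc finger gene Zfp341 (-0.79), the synaptotagmin gene Syt14 (-0.78) and Plpp1, a lipid phosphatase (-0.75).

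**Figure D3:**
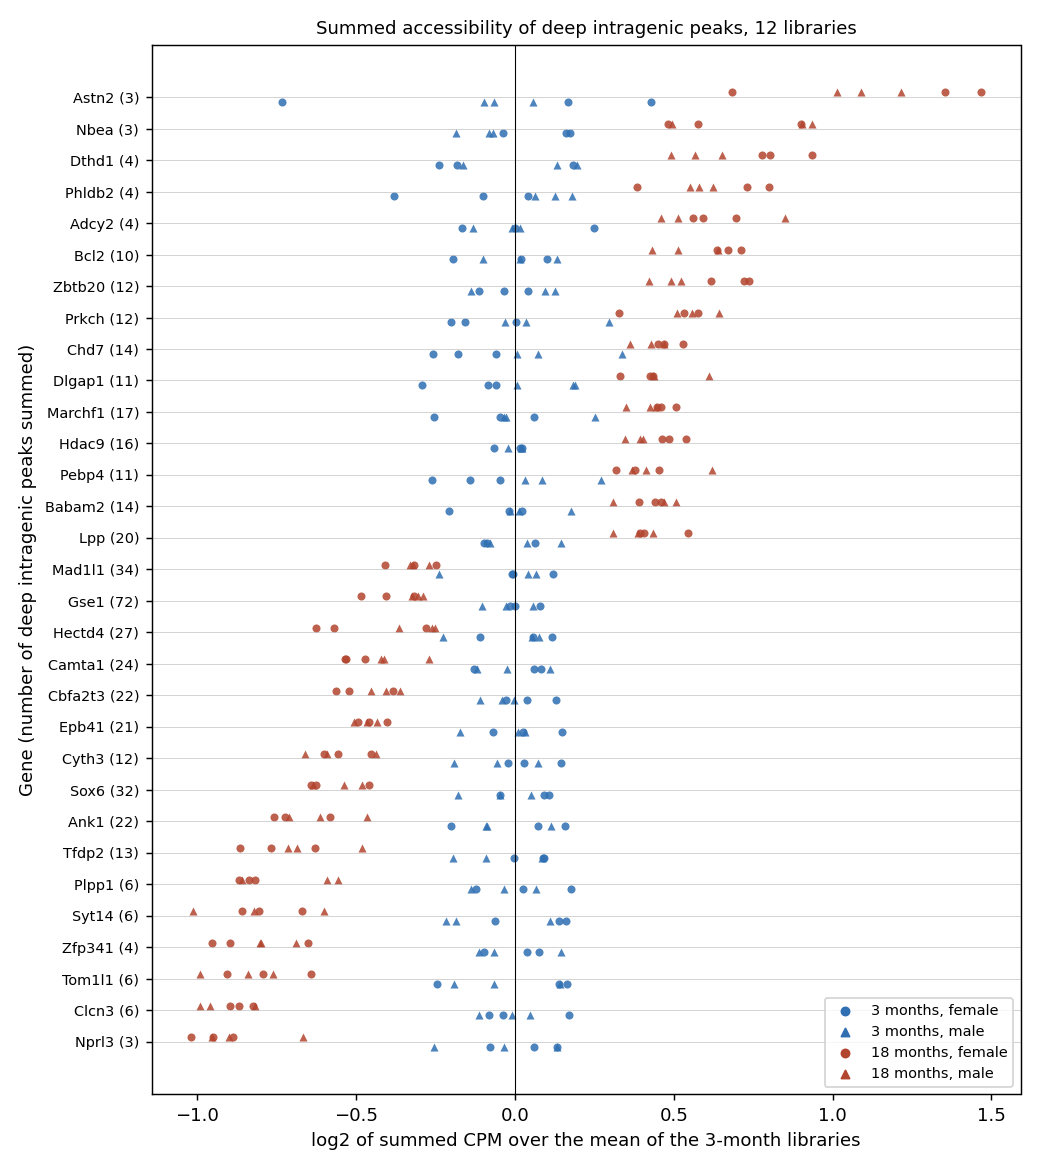
Summed CPM of the deep intragenic peaks of each named gene in the 12 libraries, as log2 of the value over the mean of the 6 libraries of 3 months; the number of peaks summed stands in parentheses. The ages do not overlap in any of the 31 genes because this was required to name them; the log2 fold changes run from -0.89 in Nprl3 and Clcn3 to 1.16 in Astn2.

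Among the genes that rose, Chd7, a chromatin remodeller, had the most rising members, 10 of 14. Its sum ran from 148 to 166 CPM (median 158) at 18 months and from 96.2 to 145 CPM (median 113) at 3 months, a log2 fold change of 0.46 (SE 0.07, edgeR adjusted p = 4.74e-06). The highest young library, 3mo_M_253, came within 3 CPM of the lowest old one. Bcl2, which protects cells from apoptosis and is needed by resting lymphocytes, had 7 of 10 members higher and 0 lower. Its sum ran from 62.1 to 75.4 CPM (median 71.7) against 40.2 to 50.5 CPM (median 46.6), with a log2 fold change of 0.60 (SE 0.07, adjusted p = 1.26e-07). All 10 Bcl2 members had positive log2 fold changes, from 0.23 to 1.11, and the largest lay at chr1:106612469-106613056, 102 kb from the annotated start. Lpp, a LIM protein of cell adhesions, had 9 of 20 higher with a sum of 105 to 123 CPM (median 112) against 79.1 to 93.6 CPM (median 83.5). Prkch, a protein kinase C isoform of lymphocytes, had 7 of 12 higher with 95.0 to 118 CPM (median 110) against 65.8 to 92.9 CPM (median 74.9). Zbtb20, a zinc finger repressor of B lineage and plasma cells, had 5 of 12 higher with 64.7 to 80.5 CPM (median 71.9) against 43.9 to 52.8 CPM (median 48.5).

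Marchf1, a ubiquitin ligase that removes MHC class II from antigen-presenting cells, had 7 of 17 members higher, Hdac9, a class IIa histone deacetylase, 6 of 16, and Babam2, a subunit of the BRCA1-A complex, 6 of 14. Each rose by 0.43 or 0.44 on the log2 scale. Pebp4 (7 of 11) and the synaptic scaffold gene Dlgap1 (6 of 11) rose by 0.43 and 0.45. The largest fold change among the named genes that rose was in Astn2. Astn2, an astrotactin of neuronal migration, had 9.97 to 17.2 CPM (median 13.8) over 3 members against 3.73 to 8.35 CPM (median 6.20), a log2 fold change of 1.16 (SE 0.15, edgeR adjusted p = 1.00e-06). The other genes named for size were the BEACH-domain gene Nbea (0.72), the death-domain gene Dthd1 (0.71), Phldb2 (0.62) and the adenylate cyclase gene Adcy2 (0.62), each with 3 rising members. Under total counts, DESeq2 size factors, abundance offsets, width offsets and each library left out in turn, the sums of all 31 named genes kept their direction and passed. These genes were chosen for called sums without overlap between ages, so this outcome was nearly fixed by the choice.

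**Figure D4:**
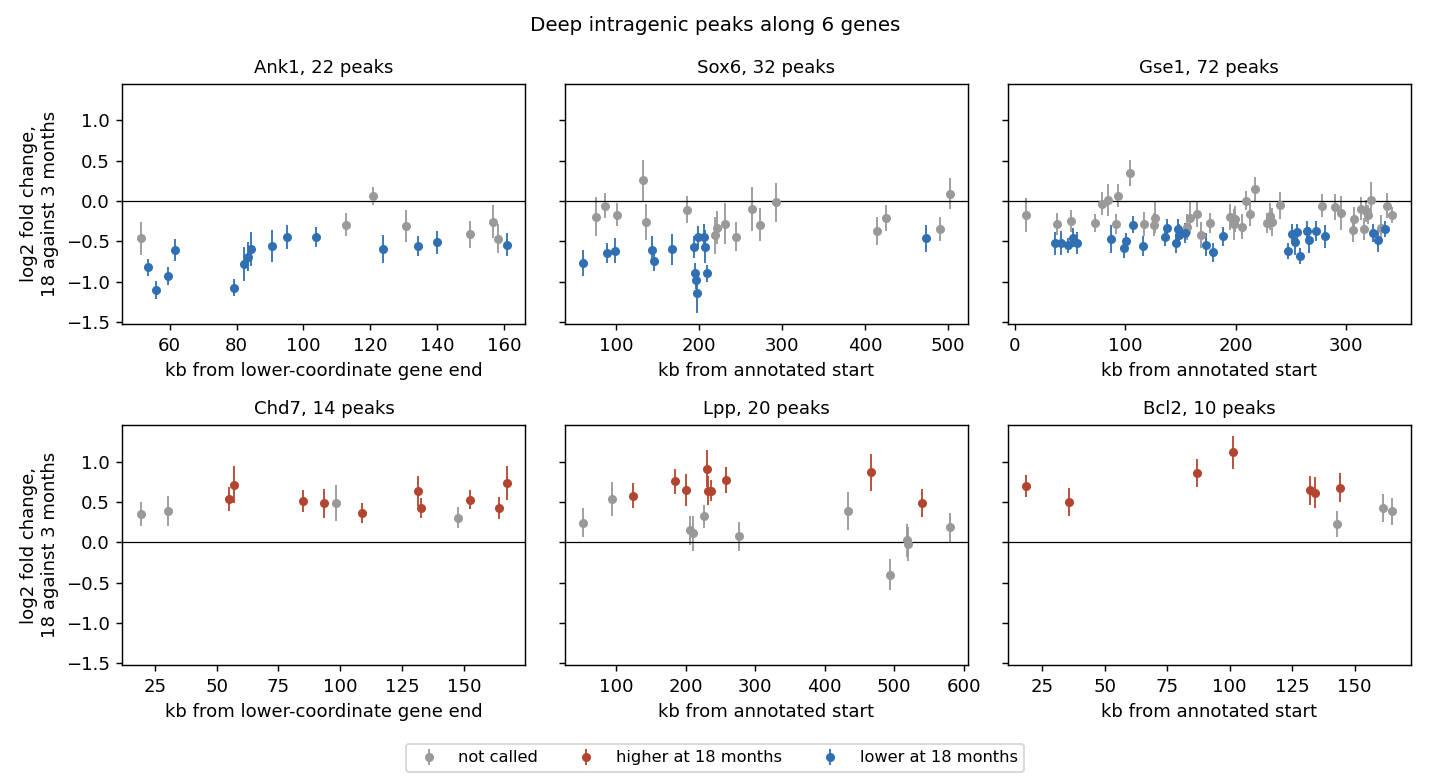
Log2 fold change (18 against 3 months, bars are SE) of each deep intragenic peak along 6 genes, by distance from the annotated start, or from the lower-coordinate gene end where no strand was given (Ank1, Chd7). In the top row 15 of 22, 15 of 32 and 31 of 72 peaks were lower and 0 higher, and in the bottom row 10 of 14, 9 of 20 and 7 of 10 were higher and 0 lower.

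Not every gene moved as a block. At least 3 members rose and at least 3 fell in 8 genes: Arid1b, Chst11, Nav2, Pde4d, Ripor2, Sgms1, Syne1 and Tgfbr3. In Pde4d, a cAMP phosphodiesterase gene with 41 members, 4 rose and 6 fell, the peaks ran from -0.73 to 0.51 in log2 fold change, and the sum was 271 to 284 CPM (median 281) at 18 months and 276 to 302 CPM (median 290) at 3 months (log2 fold change -0.06, edgeR adjusted p = 0.330). In Sgms1, a sphingomyelin synthase gene, 5 of 32 rose and 3 fell, and the sums of the ages overlapped almost fully, at 328 to 357 CPM (median 335) and 320 to 346 CPM (median 336). Of these 8 genes, Nav2 alone had a called sum, of -0.16 on the log2 scale (edgeR adjusted p = 0.0103).

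Single peaks show the size of the largest well-covered changes. Among members at or above the median accessibility of members, called with age and not overlapping between ages, the largest fall was in Macf1, a linker of microtubules and actin, at chr4:123664042-123665467, with 10.2 to 15.04 CPM (median 13.3) at 18 months against 22.6 to 45.3 CPM (median 31.9) at 3 months, a log2 fold change of -1.32 (SE 0.12, edgeR adjusted p = 1.74e-11). Falls of similar size were seen in Arsg, a lysosomal sulfatase gene (chr11:109557371-109558285, -1.27), the deubiquitinase gene Usp32 (chr11:85106839-85107639, -1.26) and at the internal start of Clcn3 (chr8:60953577-60955232, -1.24). The largest rise was in Tbc1d30, a Rab GTPase-activating protein gene, at chr10:121289922-121290336, with 5.59 to 9.66 CPM (median 7.71) against 3.16 to 4.34 CPM (median 3.86), a log2 fold change of 1.03 (SE 0.17, adjusted p = 7.66e-06). It was followed by the polarity gene Pard3b (chr1:62482952-62483604, 1.02), the kinesin gene Kif1a (chr1:93071299-93071903, 0.92) and Phactr2 (chr10:13303956-13305139, 0.88). The lowest log2 fold change of all members was in Fetub, -2.56, but on a mean of 0.331 CPM at 18 months and 2.08 CPM at 3 months.

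Lists of lineage genes were compared by their gene sums, beside 18.3% higher and 12.9% lower over all 4939 gene sums. The lists were written with earlier results of these data known, so their shares are descriptive and not an independent comparison. Of 30 erythroid genes 17 had members; 12 of their sums fell and 0 rose, with a median log2 fold change of -0.46 beside 0.07 over all 4939 gene sums, and 80 of their 187 peaks (42.8%) fell and 2 (1.07%) rose, beside 9.64% and 9.80% of all members. Besides Ank1, Sox6 and Epb41 these were Slc14a1, the red cell urea transporter (-0.74), the membrane skeleton genes Dmtn (-0.71), Add2 (-0.65) and Sptb (-0.32), Xpo7 (-0.65), Zfpm1, the GATA1 cofactor FOG1 (-0.63), Tmcc2 (-0.55), Nfia (-0.27) and Bcl11a, a repressor of fetal globin (-0.15). Nfia was mixed, with 12 of 37 peaks lower and 2 higher, and its sum ran from 255 to 277 CPM (median 261) against 298 to 329 CPM (median 319). Between 11 and 13 of the 17 sums fell and 0 rose under each of the 5 scalings, and Bcl11a did not pass with total counts or width offsets. The erythroid markers at gene ends fell in the same libraries, as given above, and their part in the fall at deep intragenic peaks was not tested.

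**Figure D5:**
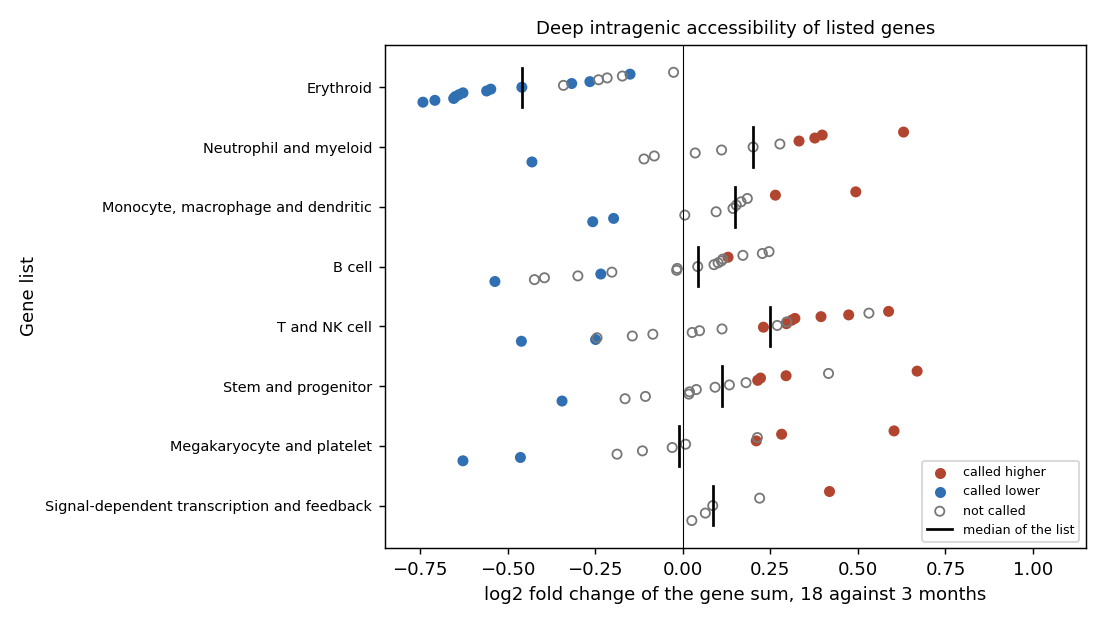
Log2 fold change of the summed deep intragenic accessibility of each listed gene (18 against 3 months); filled points were called by edgeR, open points were not, and black bars are list medians. The erythroid median is -0.46 with 12 genes lower and 0 higher, and the other medians run from -0.01 to 0.25. The lists were written with earlier results of these data known.

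The other lists were not as uniform. Of all 4939 gene sums, 1392 rose and 480 fell with total counts, and 837 and 658 with DESeq2 size factors. Abundance offsets gave 778 higher and 707 lower, and width offsets 709 and 661. List counts under those scalings, here and in the next paragraph, stand beside these. In the T and NK cell list 7 of 18 sums (38.9%, against 18.3% of all gene sums) rose and 2 fell, with a median of 0.25. The 7 were Stat4, a signal transducer of interleukin-12 (0.59), the calcium-dependent kinase gene Camk4 (0.47), Rora (0.39), the kinase genes Prkcq (0.32) and Fyn (0.31), the chromatin organiser Satb1 (0.30) and Tox (0.23), while Skap1 (-0.46) and Cd247 (-0.25) fell. The Stat4 sum ran from 33.3 to 45.4 CPM (median 38.5) against 23.2 to 29.9 CPM (median 25.0), with no overlap. The T cell markers Cd3e, Cd8a and Bcl11b had no gene-end peak, and the T cell marker peaks summed to 76.2 to 93.6 CPM at 18 months and 67.3 to 87.3 CPM at 3 months, with 1 of 6 called higher. With total-count scaling 9 of the 18 sums rose and 0 fell, and with DESeq2 size factors, abundance offsets or width offsets 6 rose and 2 fell, Tox no longer passing. For the members of this list with most peaks, Ets1 (0.11, edgeR adjusted p = 0.192) and Inpp4b (0.05, adjusted p = 0.632) did not pass.

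In the neutrophil and myeloid list 4 of 11 sums (36.4%, against 18.3% of all gene sums) rose, those of Ltf, the lactoferrin gene (0.63), the kinase genes Lyn (0.40) and Syk (0.33) and Vav1 (0.38), and 1 fell; with total counts, abundance offsets or width offsets 5 rose, Itgb2 passing as well. The one that fell was Dock2, an exchange factor for RAC in leukocytes (-0.43, and -0.21 with abundance offsets): its 2 strongest peaks, at chr11:34681668-34683366 and chr11:34542863-34545086, fell by 0.50 and 0.55 on the log2 scale, while its other 8 peaks were not called and the median of its 10 peaks was 0.05. The monocyte, macrophage and dendritic list had 2 of 10 higher (20%, against 18.3% of all: Mef2c at 0.26 and Mertk at 0.49, of which Mertk did not pass with abundance or width offsets) and 2 lower (Zbtb46 at -0.26 and Zeb2 at -0.20, the latter at -0.12 with total counts), and Runx2, with 20 members, was at 0.01 (edgeR adjusted p = 0.948). With total counts 4 of the 10 were higher, Mrc1 and Tcf4 passing as well. The B cell list had 1 of 17 higher (Foxp1, with 50 members, at 0.13, which did not pass with DESeq2 size factors, abundance offsets or width offsets) and 2 lower (Ikzf1 at -0.23 and Ikzf3 at -0.54), and Prkcb was at 0.17 (adjusted p = 0.0605). With total counts 3 of the 17 were higher, namely Foxp1, Prkcb and Bach2. The stem and progenitor list had 4 of 14 higher (Etv6 at 0.21, Kit at 0.67, Myb at 0.30 and Zbtb16 at 0.22) and Prdm16 lower (-0.34), with Cdk6 at 0.04 (adjusted p = 0.558) and Runx1 at 0.02 (adjusted p = 0.816). With total counts 8 of the 14 were higher, with abundance offsets 3, without Zbtb16, and with width offsets 2, without Zbtb16 and Kit. The megakaryocyte and platelet list had 3 of 10 higher (Fli1 at 0.21, Plek at 0.60 and Selp at 0.28, the last at 0.45 with abundance offsets) and 2 lower, among them Zfpm1, which is also on the erythroid list, with Prkca at -0.03 (adjusted p = 0.770); its median of -0.01 was 0.06 with total counts, with which 4 were higher, Rasgrp3 passing as well, while abundance offsets gave 3 lower, with Rab27b. Of 5 genes of signal-dependent transcription, Nfatc2 rose (0.42), and Nfkbiz, at 0.22 (edgeR adjusted p = 0.0973), passed with total counts, abundance offsets and width offsets (0.30, 0.44 and 0.41), while Nfkb1 was at 0.06 (edgeR adjusted p = 0.486) and Nfatc1 at 0.09 (adjusted p = 0.434).

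Within genes, the interior and the ends were compared as the log2 ratio of summed member CPM to summed gene-end CPM (each plus 0.5 CPM) in 3723 genes that had both kinds of peak. The ratio rose in 598 genes (16.1%) and fell in 129 (3.46%; limma, adjusted p under 0.05), and its median change was 0.15. In 491 of the 598 the mean of the members was higher and the mean of the gene-end peaks lower at 18 months, and in 121 of the 129 the mean of the members was lower. Taf3, a subunit of the TFIID complex, went from 26.1 to 38.5 CPM over 6 members and from 36.7 to 29.8 CPM at its ends, so its log2 ratio rose from -0.49 ± 0.16 to 0.37 ± 0.22 (SD, n = 6; limma adjusted p = 0.000667). Aim2, a sensor of cytosolic DNA, went from 48.5 to 62.9 CPM over 9 members and from 6.62 to 4.08 CPM at its ends. Pard3b, Abcc4 and Cracd were the other genes named, and in Cracd both fell, from 51.1 to 42.5 CPM inside and from 30.5 to 14.8 CPM at the end. In the other direction, Carm1, an arginine methyltransferase, went from 48.0 to 31.0 CPM inside and from 33.1 to 35.6 CPM at its ends, and its log2 ratio fell by 0.72 (SE 0.10, limma adjusted p = 0.00116). Homer1, Wdtc1, Cryzl1 and Tmem120b had ratio changes of -0.69, -0.77, -0.81 and -0.68. With abundance offsets 329 ratios rose and 165 fell, and with width offsets 309 rose and 130 fell. The 10 named genes, chosen for the lowest p in each direction, passed under both. Without library 3mo_F_245 the ratio rose in 373 genes, and without library 3mo_M_251 in 392.

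The age comparison was repeated within each sex. In females 1205 members (6.36%) were higher and 1145 (6.04%) lower at 18 months, against 5.7% and 6.2% of all tested peaks. In males 490 (2.58%) were higher and 989 (5.22%) lower, against 3.21% and 8.18%. With total counts the splits were 1523 higher and 952 lower in females and 1003 higher and 660 lower in males, and with abundance and width offsets 1203 and 1037 were higher and 1304 and 1103 lower in females, so the direction of the majority depended on the scaling in both sexes. Of members called in each sex, 694 were shared, 29.5% of those in females and 46.9% of those in males, and 692 of the 694 had the same direction. Leaving out 1 library moved these counts by more than 1.5 times: higher in females fell to 598, 459, 489 and 575 without 18mo_F_35, 18mo_F_36, 3mo_F_244 and 3mo_F_245, and lower in females to 724, 701 and 674 without 18mo_F_35, 18mo_F_36 and 3mo_F_245. Higher in males fell to 291, 265, 218 and 205 without 18mo_M_38, 18mo_M_39, 18mo_M_40 and 3mo_M_251, and lower in males to 539 without 3mo_M_251. The old females and the old males came from separate runs, and sex and run cannot be told apart at 18 months.

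The test of the difference between the sexes called 2 members (edgeR interaction term; 0.0105% of members, against 0.00532% of all tested peaks), and 1645 had an unadjusted p under 0.05. The first lies in Fam3c, the gene of a secreted cytokine-like protein, at chr6:22329990-22331140. Its CPM was 13.8, 18.7 and 16.5 in 18-month females, 10.4, 10.6 and 10.8 in 3-month females, 8.88, 9.28 and 7.28 in 18-month males and 13.6, 14.4 and 16.0 in 3-month males. It was higher with age in every female and lower in every male, a difference of -1.41 on the log2 scale (SE 0.24, adjusted p = 0.0164). The second lies in Mdfic, a regulator of MyoD-family factors, at chr6:15745834-15746394, with 9.23, 7.33 and 10.2 CPM in 18-month females, 5.76, 4.01 and 4.98 in 3-month females, 4.39, 2.56 and 4.01 in 18-month males and 8.26, 5.22 and 8.35 in 3-month males. Its interaction was -1.84 (SE 0.34, adjusted p = 0.0321), again with opposite directions and no overlap within each sex. The number of interactions rested on single libraries: without library 3mo_M_252 53 members had a positive interaction (the log2 age change of males above that of females) and 193 a negative one, whereas without library 18mo_M_40, library 3mo_F_244 or library 3mo_F_245 0 had a negative one, and without 18mo_F_35, 18mo_F_36, 18mo_M_39 or 3mo_M_251, 1 had.

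Between males and females, 0 members were called by edgeR (over all tested peaks 0.0186% were higher and 0.144% lower in males, 0.162% in all), with 1197 at an unadjusted p under 0.05. The lowest p-values were in Pcca, the gene of a propionyl-CoA carboxylase subunit, at chr14:122569015-122569786, and in Map4k5, a kinase gene, at chr12:69821638-69822311. The Pcca peak was at 3.50 and 5.56 CPM on average in females and males of 18 months and at 2.79 and 5.37 CPM at 3 months, a log2 difference of 0.80 (SE 0.19, adjusted p = 0.0643). The Map4k5 peak was at 2.99 and 5.99 CPM and at 4.63 and 6.53 CPM in the same order (0.75, SE 0.18, adjusted p = 0.0698). Without library 3mo_M_253, 14 members were called higher and 21 lower in males.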

How the data were processed

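ATAC-seq libraries of 12 mice were analysed. Per the labels' protocols, each was made from 50000 cells permeabilised with 0.01% digitonin, amplified for 10 cycles and read as 75 bp pairs. The authors deposited 1 table of whole-number read counts per consensus peak and library, with a smallest value of 1. The submitters' processing notes name mm10, Trimmomatic, BWA, MACS2, DiffBind and edgeR without versions; how consensus peaks were built, duplicates removed or cut sites shifted is not given in the sources used here. Depth was 7668099 to 12756647 counts in peaks per library.

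Members were found by coordinates in the RefSeq GRCm38.p6 gene table. Peaks with more than 1 CPM in at least 2 libraries (75164 of 75281) were fitted with edgeR 4.0.16 (quasi-likelihood, TMM; R 4.3.3), with age and sex as terms, and with 4 group means for each sex and the interaction. Gene sums add the counts of a gene's members. Ratios were fitted with limma 3.58.1. Standard errors are the log2 fold change over the root of F. Benjamini-Hochberg adjustment ran over all peaks, sums or ratios tested. Named genes had at least 3 called members in 1 direction and none in the other, a called sum and no overlap between ages, taken by most called members (10 per direction) or by largest fold (6 per direction). Single peaks were the 4 largest folds per direction, ratios the 5 lowest p per direction, and list genes the 3 with most members; the other called list genes were named after their values were seen. The values of 1 list gene are not reported here. Alternatives were total counts, DESeq2 1.42.0, abundance and width offsets (loess), no filter, other limits of distance and width, and each library left out. The scripts were tested on simulated data. Members, gene lists and tests were chosen with earlier results of these data known. Replicates are separate mice; no 2 libraries of a group were identical (chi-square per degree of freedom 2.17 to 6.09 over 12 pairs).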

Additional observations from a re-analysis of the deposited data

Results flagged for a closer look

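Of 92 groups of 6 libraries examined, 5 held a library far from the other 5 of its age by Dixon's test, which chance gives in about 1 in 20 groups. The share of counts in deep intragenic peaks was 15.5% in library 3mo_M_252, against a median of 14.7% at 3 months. The Dlgap1 sum was 62.2 CPM in library 18mo_M_40 (median 55.1 CPM), and the Nprl3 sum was 33.7 CPM in library 18mo_M_39 (median 28.2 CPM). The Phactr2 peak stood apart at both ages, at 14.6 CPM in library 18mo_F_36 (median 19.9 CPM) and at 14.2 CPM in library 3mo_M_253 (median 9.93 CPM), so these 2 libraries nearly met.

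The age effects of the sexes differed in the Mdfic peak, by -1.84 on the log2 scale (edgeR interaction term, adjusted p = 0.0321), and in the Fam3c peak, by -1.41 (adjusted p = 0.0164). Over gene sums the Fam3c interaction was also called, at -0.91 (edgeR adjusted p = 0.0355), the 1 called of 4939.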

How the results depend on the processing

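Which direction held more members depended on the scaling, as given with the age counts and those of each sex. With total counts, 2945 members were higher with age, 1003 in males, and 1392 gene sums; 1 member was higher in males than females, as also with abundance and with width offsets (1 each), and width offsets gave 1 lower. Abundance offsets gave 1 positive interaction (males minus females), and no filter left 1 of 2 negative ones. The ratio rose in 329 genes with abundance and 309 with width offsets, and the difference against gene-end peaks was 0.0230 and 0.0244 on the log2 scale (exact permutation p = 0.145 and 0.0801). Members more than 20 kb from gene ends gave 1323 higher and 1180 lower, and those under 1000 bp wide 1479 and 912, with fewer members tested. Leaving out each library gave 1327 to 2472 higher and 1500 to 2159 lower with age, 459 to 1571 and 674 to 1473 in females, 205 to 695 and 539 to 1236 in males, 0 to 53 and 0 to 193 interactions, 0 to 14 and 0 to 21 sex calls, 690 to 1078 and 569 to 742 gene sums, and 373 to 643 and 90 to 133 ratios. The library differences ran from 0.61 to 0.84 points for the share, 0.07 to 0.10 against gene-end and -0.06 to -0.06 against intergenic peaks. All 756 values of the gene sums named by call count or fold and of the 8 peaks named by fold kept direction and call. Those sums and peaks were chosen for calls without overlap between ages, which made this likely. Some list genes and both interaction peaks did not keep their call, as given with them. No paired analysis was possible because the groups share no replicate numbers; a block on the 2 runs that held both sexes at 3 months was not fitted. Members near 1 CPM hold few reads per library, which limits what can be called there.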
